A study of Rattus norvegicus with 6 samples.

Results

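The small heat shock proteins and chaperones described here are the genes Hspb1, Hspb8, Cryab, Hspa1b, Hspa2, Hspa5, Hspa8, Dnajb1, Hsp90aa1 and Hspd1, measured in 3 rat populations of olfactory ensheathing cells (OECs), which are glia that accompany the axons of smell neurons. A gene was represented by the probe sets whose annotation gives its symbol and no other, and 7 of the 10 genes had such probe sets, 14 on the U34A array and 10 on the RAE2.0 array. Of these 24 probe sets 23 exceeded the floor of their array type on at least 1 array and passed the filter on low values. Hspa1b, Hspa8 and Hsp90aa1 are represented by probe sets that share several symbols and were not analysed here. Hspb8 has probe sets on RAE2.0 only, so 6 of the genes were on both types, among 3131 such genes in all. The genes were chosen by family, but Hspb8 was selected on its high RAE2.0 signal in OEC Lp, so the levels of Hspb8 and every comparison with OEC Lp are given as descriptions.

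Total RNA of 3 populations of Wistar rat cells was hybridised to 6 Affymetrix arrays, 1 U34A and 1 RAE2.0 array per population, and these numbers limit the precision. TEG3 is a clonal line, derived from olfactory nerve layer OECs of rats at postnatal day 60 by transfection with SV40 large T antigen and then serially passaged. OEC Lp is a primary culture of the nerve layer of rats at postnatal day 21, grown for over 50 population doublings. OEC Ep is the short-term form of that culture, kept for 1 week and for less than 3 doublings. The medium of all 3 was DMEM, to which 3% serum, bovine pituitary extract (20 µg/ml) and forskolin (2 µM), a drug that raises cyclic AMP, were added, and a purity over 90% is stated for both primary cultures. Each population gave 2 RNA pools of 3 cultures, but which pool was put on which array is not stated, so the spread between the arrays of a population may be technical.

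Values are MAS5 signals, a linear measure of hybridisation with no absolute unit. Levels of different array types or, except in the marker sums, of different probe sets were not set against each other. In those sums bright probe sets weigh most. Each type had a floor at its 40th percentile (168 on RAE2.0, 128.4 on U34A) that replaced lower signals, and a fold against a value at the floor is a lower bound, written "at least", while a fitted fold that includes such values is no bound. The fitted log2 fold of a gene is the mean of its log2 ratios on the array types. Its SE reflects how far the types differ over all 3 populations and is drawn towards the spread of other genes. It is therefore the same in every comparison and does not measure how far the types differ in that comparison alone. OEC and Schwann cell markers set OEC Ep apart from TEG3 and OEC Lp, but not those from each other. On RAE2.0 their floored signals (12 of 14 genes) summed to 4690 in TEG3, 5251 in OEC Lp and 144881 in OEC Ep. In that order 9, 9 and 0 of them were at the floor. On U34A (11 genes) the sums were 6238, 4930 and 41917, with fewer genes at the floor (1, 3 and 0). Microglia and macrophage markers on RAE2.0 (13 genes that passed) summed to 2250, 2437 and 59572, and neuron markers (7 genes) to 5204, 1855 and 38488. The neuron sum in OEC Ep rests mostly on Nefm (20209), Nefl (9367) and Uchl1 (6966), and no other neuron gene exceeded 666 there (Tubb3). In such bulk samples, fewer cells of a type and less RNA per cell cannot be told apart. The ratio of 3' to 5' GAPDH signal, a sign of RNA quality, was 1.54, 1.52 and 1.96 on U34A and 1.02, 0.981 and 1.02 on RAE2.0 in the same order.

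Small heat shock proteins are chaperones that work without ATP: they bind unfolding proteins and keep them soluble until chaperones of the HSP70 family, driven by J-domain partners such as the product of Dnajb1, refold them. Other chaperones serve 1 compartment, as do the product of Hspa5 (BiP) in the endoplasmic reticulum and that of Hspd1 (HSP60) in the mitochondrial matrix. Heat shock factor 1 induces many of these genes through heat shock elements, inverted repeats of the unit GAA, while stress in the endoplasmic reticulum induces Hspa5 through an element of its own.

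Hspb8 codes for a small heat shock protein (HSP22) that acts with the cochaperone BAG3 in the autophagy of damaged proteins. Its first RAE2.0 probe set had a signal of 165 in TEG3, 4199 in OEC Lp and 207 in OEC Ep. The second had 210 in TEG3, 10178 in OEC Lp and 234 in OEC Ep. OEC Lp thus stood alone, with TEG3 and OEC Ep close to the floor of 168 on both probe sets. The ratio of OEC Lp to OEC Ep was 20.3-fold on the first and 43.5-fold on the second probe set, and TEG3 was at least 25.0-fold lower than OEC Lp on the first and 48.5-fold lower on the second. The gene's span over the 3 arrays, a log2 difference of 5.12, was wider than that of 99.3% of the 11542 genes on RAE2.0. This signal is what the gene was chosen for, and with 1 array per population it has no replicate check. Bag3, on RAE2.0 only as well, had signals of 1258 in TEG3, 1654 in OEC Lp and 1789 in OEC Ep, and Sqstm1, an autophagy receptor that works beside them, had 2120, 2158 and 2006, so neither had the pattern of Hspb8. Fibroblast and meningeal markers on RAE2.0 (11 genes that passed) summed to 38482 in TEG3, 136145 in OEC Lp and 131986 in OEC Ep, and contractile markers (10 genes) to 13959, 21136 and 25838. These sums rest on a few bright genes, and the members of the lists went different ways. Of the fibroblast and meningeal genes on RAE2.0, 5 of 11 were at least 2-fold higher and 4 at least 2-fold lower in OEC Lp than in OEC Ep, and of the contractile genes 1 of 10 was higher and 7 were lower. At the floor on RAE2.0 in TEG3, OEC Lp and OEC Ep were 4, 2 and 4 of the fibroblast and meningeal genes and 3, 6 and 1 of the contractile genes. On U34A the contractile markers (8 genes) summed to 6593 in TEG3, 22718 in OEC Lp and 16854 in OEC Ep, so the order of the primary cultures differed between the types. Myl9 and Myh11 had log2 ratios of OEC Lp to OEC Ep of 1.20 and 0.49 on U34A but -1.56 and -1.46 on RAE2.0. The other contractile genes on both types kept their sign. Some genes of these lists, named after their values were seen, were highest in OEC Lp, as Hspb8 was. Tnnt2, the cardiac troponin T gene, was at the floor of 168 in TEG3, with 17776 in OEC Lp and 194 in OEC Ep on RAE2.0, and had 174, 4921 and 128 on U34A. Foxc1, a transcription factor gene of the meninges, had 200 in TEG3, 2118 in OEC Lp and 168 in OEC Ep on RAE2.0, and Twist1, a mesenchymal transcription factor gene, had 423, 1342 and 168. Prrx1, another mesenchymal transcription factor gene, had 1373 in TEG3, 2255 in OEC Lp and 680 in OEC Ep on U34A and 267, 714 and 168 on RAE2.0. It was thus far above the floor in every population on U34A. Tnnt2 and Prrx1 passed the test in OEC Lp against OEC Ep, both higher in OEC Lp (limma adjusted p = 0.00676 for Tnnt2 and 0.0316 for Prrx1). As they were picked for their OEC Lp values, nothing is read from these p-values. Other genes of the lists passed in the opposite direction. Of 8 contractile genes on both types 1 passed higher and 2 lower (Acta2 and Cnn1). Of 9 fibroblast and meningeal genes 2 passed higher (Prrx1 and Col3a1) and 2 lower (Thy1 and Postn). Of all genes 2.11% passed higher and 4.02% lower. The part of such cells in the Hspb8 signal was not tested.

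Hspb1, the other chaperone with a wide span, codes for HSP27 (HSP25 in rodents), a small heat shock protein that also protects actin filaments. On RAE2.0 its probe set had 4766 in TEG3, 76 in OEC Lp and 1097 in OEC Ep, so TEG3 was highest and OEC Lp under the floor. On U34A 3 of 4 probe sets had the same leading population. These had 3943, 4181 and 3253 in TEG3, 634, 679 and 1229 in OEC Lp and 952, 963 and 1014 in OEC Ep. The fourth, from the same expressed sequence tag as one of them, had 946 in TEG3, 577 in OEC Lp and 1074 in OEC Ep and did not show the TEG3 level. OEC Lp was thus above the floor on all 4 U34A probe sets and below it on RAE2.0, and whether it lay under OEC Ep depended on the probe set.

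The promoters of these 2 genes are shown because Hspb8 was high in OEC Lp and Hspb1 in TEG3, and both are known targets of heat shock factors. They are RefSeq windows of the GRCr8 assembly, from 250 bases before the transcript start to 50 after it, for Hspb8 at chr12:45837058-45837357, plus strand, and for Hspb1 at chr12:26432252-26432551, minus strand. Capitals mark each match to GAANNTTC or TTCNNGAA, a pair of inverted heat shock units, which read the same on both strands.
Hspb8: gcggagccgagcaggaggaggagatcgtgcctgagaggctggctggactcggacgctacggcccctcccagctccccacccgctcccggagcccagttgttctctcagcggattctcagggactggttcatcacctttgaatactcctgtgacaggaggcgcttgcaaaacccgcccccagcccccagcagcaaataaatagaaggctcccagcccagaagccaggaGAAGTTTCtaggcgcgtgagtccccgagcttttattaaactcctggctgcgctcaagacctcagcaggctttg
Hspb1: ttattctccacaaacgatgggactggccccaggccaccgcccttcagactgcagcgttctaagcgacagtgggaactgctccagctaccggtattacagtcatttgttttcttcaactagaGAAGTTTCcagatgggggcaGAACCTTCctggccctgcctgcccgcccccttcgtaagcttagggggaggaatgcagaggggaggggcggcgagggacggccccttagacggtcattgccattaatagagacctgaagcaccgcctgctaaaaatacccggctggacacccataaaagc
The Hspb8 window held 1 such pair, at positions -23 to -16 counted from the start, and the Hspb1 window 2, at -129 to -122 and at -109 to -102. The pair at -23 in Hspb8 and that at -129 in Hspb1 have the same letters, GAAGTTTC. Pairs were found in 15.9% of 33469 promoter windows, so they are common. Neither window held 3 units in a row (GAANNTTCNNGAA or TTCNNGAANNTTC), which 0.798% of all windows did. A match is a description of the letters and not of binding.

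**Figure D1:**
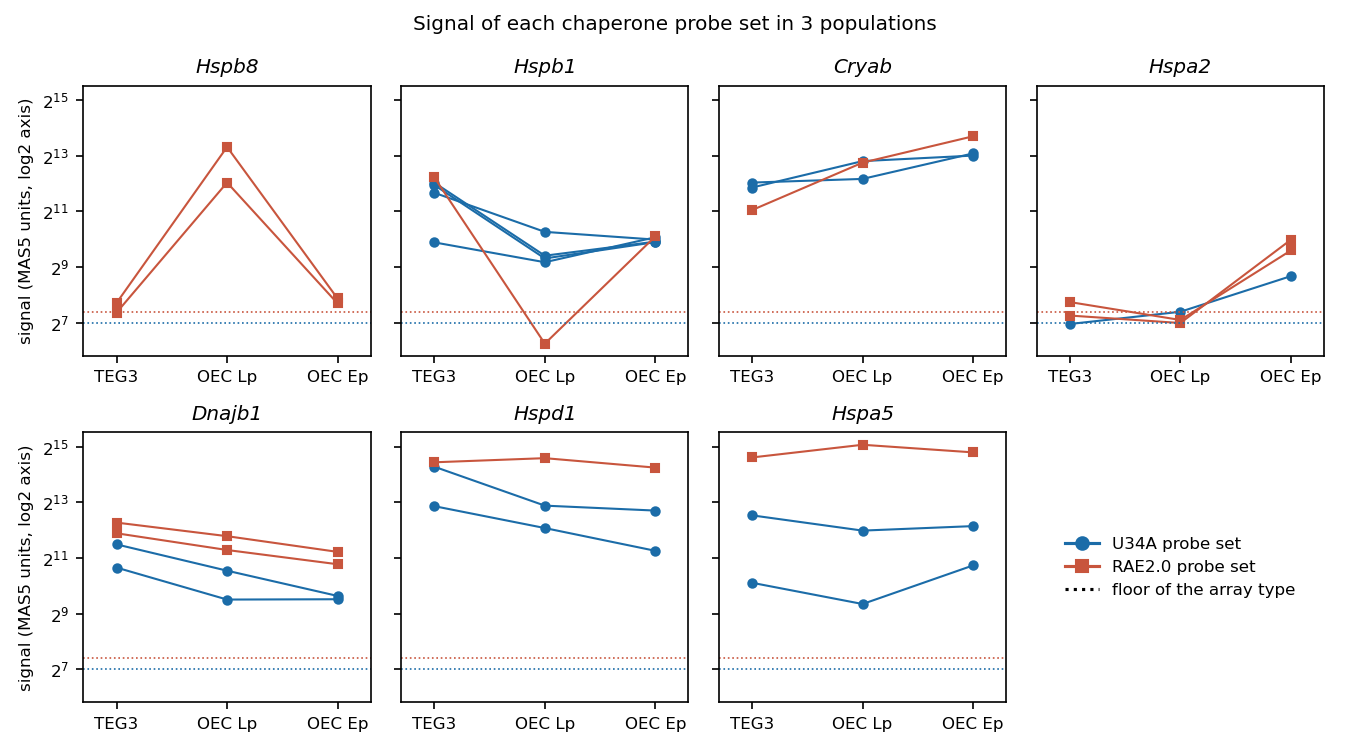
Signal of every chaperone probe set that passed the filter (vertical axis, MAS5 units, log2 scale) in TEG3, OEC Lp and OEC Ep (left to right), with 1 line per probe set, circles for U34A, squares for RAE2.0 and dotted lines at the floor of each type. Hspb8 peaks in OEC Lp at 4199 and 10178, Hspb1 is lowest there on RAE2.0 at 76, Cryab is lowest in TEG3, and Hspa2 is near the floor in TEG3 and OEC Lp.

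Cryab codes for alpha B-crystallin, a small heat shock protein of lens, muscle and glia. On RAE2.0 it had 2116 in TEG3, 6893 in OEC Lp and 13280 in OEC Ep. On U34A 1 probe set had 4195 in TEG3, 4594 in OEC Lp and 8672 in OEC Ep, and the other had 3709, 7159 and 8214 in that order. All 3 probe sets therefore gave the order TEG3, OEC Lp, OEC Ep from low to high, although the step between OEC Lp and its neighbours differed from 1.10-fold to 3.26-fold below it and from 1.15-fold to 1.93-fold above it. Cryab remained far above the floor in every population.

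Hspa2 codes for an HSP70 protein best known from male germ cells. It had 124 in TEG3, 168 in OEC Lp and 408 in OEC Ep on U34A. Its RAE2.0 probe sets had 214 and 153 in TEG3, 137 and 127 in OEC Lp and 773 and 1009 in OEC Ep. OEC Ep was highest on all 3 probe sets, and TEG3 and OEC Lp, both near the floor, could not be ordered. Cryab and Hspa2 were both highest in OEC Ep, the population in which the glial, macrophage and neuron marker sums above were also highest, and the part of those markers in the result was not tested.

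Dnajb1 codes for HSP40, the J-domain protein that stimulates the ATPase of HSP70. Its U34A probe sets had 1607 and 2864 in TEG3, 725 and 1488 in OEC Lp and 731 and 794 in OEC Ep. Its RAE2.0 probe sets had 3777 and 4928 in TEG3, 2491 and 3515 in OEC Lp and 1748 and 2378 in OEC Ep. TEG3 was highest on all 4 probe sets. OEC Lp was second on 3 of them and level with OEC Ep on the other. Hspd1, the mitochondrial chaperonin, had 19818 and 7420 in TEG3, 7518 and 4302 in OEC Lp and 6649 and 2442 in OEC Ep on its U34A probe sets. On RAE2.0 it had 22127 in TEG3, 24523 in OEC Lp and 19385 in OEC Ep, a range of 1.27-fold, so the TEG3 difference of U34A was not seen there.

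Hspa5, the main HSP70 of the endoplasmic reticulum, had the narrowest span of fitted population means among the 6 genes on both types, although on RAE2.0 alone Hspd1 had a narrower one. On RAE2.0 it had 24965 in TEG3, 34229 in OEC Lp and 28324 in OEC Ep. On U34A the first probe set had 5902 in TEG3, 4037 in OEC Lp and 4516 in OEC Ep, another had 1101, 649 and 1696, and the third did not exceed 8 and was left out. The order of the populations differed between all 3 probe sets that passed. The population means of Hspa5 spanned a log2 difference of 0.25, at the 10.6 percentile of all genes on both types.

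The promoters of these genes are shown by the stretches that hold their motifs. Dnajb1 was highest in TEG3 on both array types, Hspd1 on U34A only and Hspa5 on 1 U34A probe set only, while Hspa2 was near the floor there. A link of the motifs to these levels was not tested. The windows are again from RefSeq on GRCr8, Dnajb1 at chr19:41431092-41431391, minus strand, in full, and 60 bases each of Hspd1 at chr9:64084228-64084287, minus strand, Hspa2 at chr6:100864352-100864411, plus strand, and Hspa5 at chr3:38452952-38453011, plus strand. Capitals mark heat shock units as before and, in Hspa5, the endoplasmic reticulum stress response element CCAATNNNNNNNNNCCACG, sought on both strands.
Dnajb1: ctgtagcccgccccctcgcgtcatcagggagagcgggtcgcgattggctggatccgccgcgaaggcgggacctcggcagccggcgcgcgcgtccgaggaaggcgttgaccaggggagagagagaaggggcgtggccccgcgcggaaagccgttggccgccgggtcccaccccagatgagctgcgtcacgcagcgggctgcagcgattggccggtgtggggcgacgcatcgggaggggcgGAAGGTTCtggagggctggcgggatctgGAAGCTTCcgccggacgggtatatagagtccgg
Hspd1: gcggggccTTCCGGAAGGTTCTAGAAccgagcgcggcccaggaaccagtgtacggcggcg
Hspa2: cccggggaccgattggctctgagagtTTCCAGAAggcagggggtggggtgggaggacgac
Hspa5: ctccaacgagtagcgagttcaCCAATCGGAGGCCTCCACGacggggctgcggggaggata
The Dnajb1 window held 2 pairs, 1 at -11 to -4 and 1 inside the transcript at 17 to 24. Hspd1 held 2 overlapping matches to 3 units in a row, starting at -242 and -237. Hspa2 held 1 pair, at -64 to -57. The Hspa5 window held no heat shock pair but 1 stress response element, at -43 to -25, which only 22 of all windows (0.0657%) had. Of the 7 genes with a window, Hspa8 included, 6 held at least 1 pair and Hspa5 held none, against 15.9% of all windows with a pair. The genes were chosen by family, so nothing is read from this count. Windows of Cryab, Hspa1b and Hsp90aa1 were not used here.

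The first comparison set the immortalised TEG3 line against the short-term cultures of OEC Ep. None of the 6 genes passed an adjusted p under 0.05 by limma with Benjamini-Hochberg adjustment over all 3131 genes, of which 4.34% passed. At an unadjusted p under 0.05, 3 of 6 passed, against 21.7% of all genes. Hspa2 came closest, with a fitted fold of 3.85 lower in TEG3, where it was at the floor on U34A (log2 fold -1.94 ± 0.37 SE, adjusted p = 0.0533). Cryab was 3.66-fold lower (log2 fold -1.87 ± 0.45, adjusted p = 0.09), with a ratio of -1.10 on U34A and -2.65 on RAE2.0. Dnajb1 was 2.44-fold higher (log2 fold 1.29 ± 0.31, adjusted p = 0.0906), with log2 ratios of 1.49 and 1.08. Hspb1 was 3.41-fold higher (log2 fold 1.77 ± 0.72, adjusted p = 0.235), with 1.42 on U34A, where the discordant probe set enters, and 2.12 on RAE2.0. Its SE takes in the OEC Lp arrays, and with only the 4 arrays compared it was 0.32. Hspd1 had 0.89 ± 0.43 (adjusted p = 0.305), with 1.59 on U34A and 0.19 on RAE2.0, and Hspa5 had -0.15 ± 0.39 (adjusted p = 0.867).

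All 6 genes had the same sign on both array types in this comparison, 3 positive and 3 negative, with a median log2 fold of 0.37 against 0.04 for all genes. The share of all genes with the same sign is not given, so nothing is read from this count. Hspa5 entered it with log2 ratios of only -0.12 on U34A and -0.18 on RAE2.0, and its U34A probe sets differed in sign (0.39 and -0.62). On U34A 3 of 6 were at least 2-fold higher and 2 lower, against 10.5% and 12.9% of genes on that type. On RAE2.0 2 of 7 were higher and 2 lower, against 12% and 10.6%. Taking the brightest probe set of a gene in place of the mean brought Hspa2 past the threshold (log2 fold -2.13, limma adjusted p = 0.0478). Over 13 alternatives its adjusted p ran from 0.0478 to 0.742. No other setting called one of the 6 genes, but with no replicate block and with only the 4 arrays compared 0 of all 3131 genes passed.

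**Figure D2:**
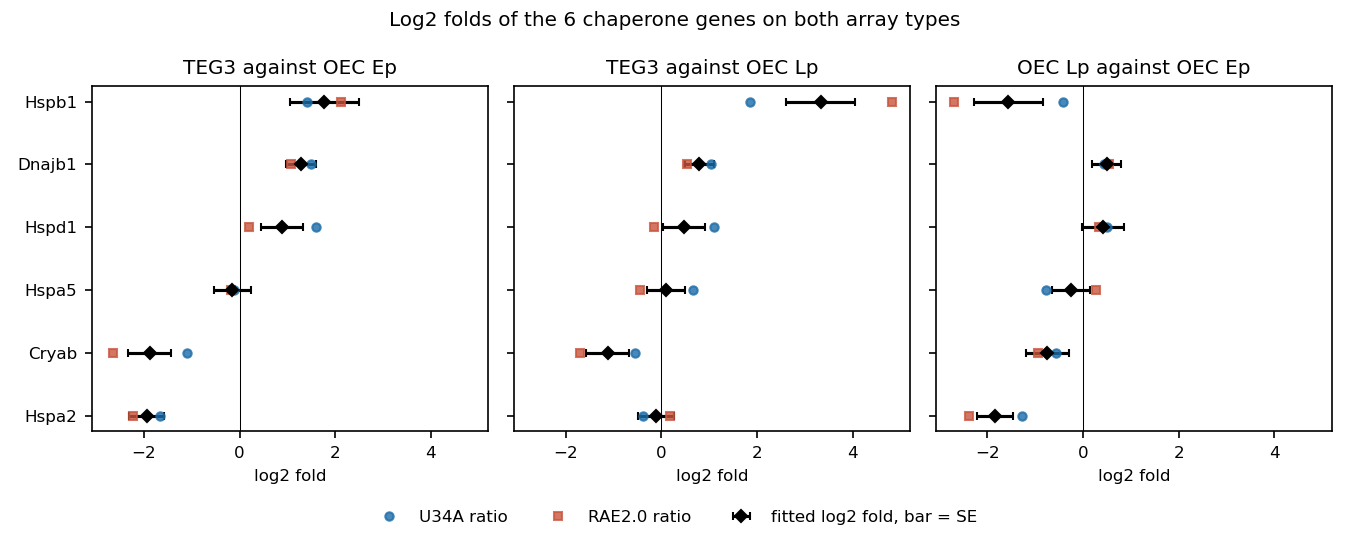
Log2 folds of the 6 genes on both array types (horizontal axis) for TEG3 against each of OEC Lp and OEC Ep and for OEC Lp against OEC Ep, with diamonds for the fitted value, bars for its SE, circles for U34A and squares for RAE2.0. In TEG3 against OEC Ep the types agree in sign for every gene, while for Hspb1 against OEC Lp they lie at 1.84 and 4.83.

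In TEG3 against OEC Lp, Hspb1 had the widest difference, 3.33 ± 0.72 on the log2 scale, a fitted fold of 10.1 higher in TEG3. The types differed, with 1.84 on U34A and a lower bound of 4.83 on RAE2.0, where OEC Lp was under the floor. Cryab had -1.12 ± 0.45, Dnajb1 0.80 ± 0.31, Hspd1 0.47 ± 0.43, Hspa5 0.10 ± 0.39 and Hspa2 -0.11 ± 0.37. The last 3 had opposite signs on the types. By limma 0 of the 6 genes passed at an adjusted p under 0.05 (1.21% of all genes did) and 3 at an unadjusted one (15.4% of all genes). As OEC Lp entered the choice of the genes, nothing is read from these counts. On RAE2.0 Hspb1 was at least 2-fold higher and Hspb8 and Cryab at least 2-fold lower in TEG3, 1 and 2 of 7 genes, against 9.61% and 8.66% of all genes. On U34A 3 of 6 (Hspb1, Dnajb1 and Hspd1) were at least 2-fold higher and 0 lower, against 8.08% and 11.6% of all genes.

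The last comparison set OEC Lp, after over 50 doublings, against OEC Ep. Hspa2 had a log2 fold of -1.84 ± 0.37, a fitted fold of 3.57 lower in OEC Lp, where it was at the floor on RAE2.0, and Hspb1 had -1.57 ± 0.72, with -0.43 on U34A and a bound of -2.71 on RAE2.0. Cryab had -0.75 ± 0.45, Dnajb1 0.49 ± 0.31, Hspd1 0.42 ± 0.43 and Hspa5 -0.25 ± 0.39. Of the 6 genes 0 passed an adjusted p under 0.05 (6.13% of all genes did) and 1 an unadjusted one (19.5% of all genes), and nothing is read from these counts. Among the small heat shock genes, Hspb8 was far higher in OEC Lp on RAE2.0, the signal it was chosen for. The fitted log2 folds of Hspb1 and Cryab were negative but did not pass, so no contrast between these genes is drawn. On RAE2.0 1 of 7 genes was at least 2-fold higher, Hspb8, and 2 were lower, Hspb1 and Hspa2, against 10.4% of all genes in each direction. On U34A 0 of 6 were higher and 1 lower, Hspa2, against 11% and 10.1% of all genes. The 3 comparisons share arrays, so they are not independent of each other.

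**Figure D3:**
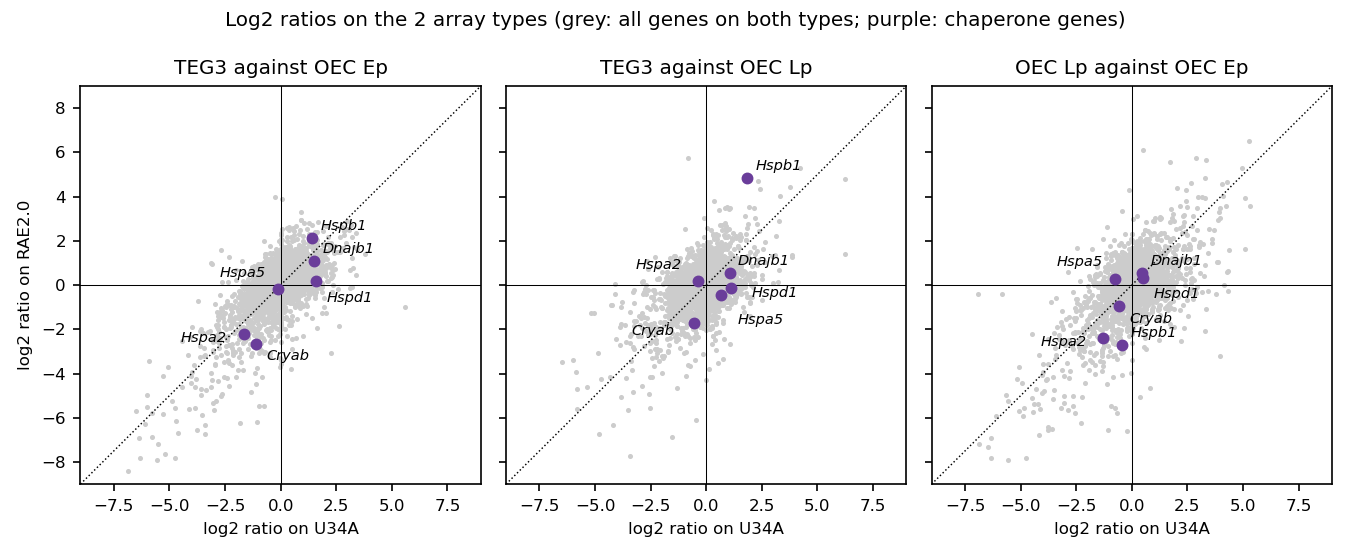
Log2 ratio on U34A (horizontal axis) against that on RAE2.0 (vertical axis) for TEG3 against each of OEC Lp and OEC Ep and for OEC Lp against OEC Ep, with grey points for all 3131 genes on both types, purple points for the 6 chaperone genes and a dotted line of equal ratios. Hspb1 lies far above the line in TEG3 against OEC Lp and below it in OEC Lp against OEC Ep.

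The genes whose pattern was most like those of Hspb8 and Hspb1 were found by the Euclidean distance of log2 signals centred within each array type. For Hspb8, over the 3 RAE2.0 arrays and 11542 genes, they were Itgb4, the integrin beta 4 chain of hemidesmosomes (distance 0.194), Akr1c14, an aldo-keto reductase (0.203), Abi3bp, a matrix protein (0.260), and Tfap2b, a transcription factor gene of neural crest (0.264). Itgb4 had RAE2.0 signals of 192 in TEG3, 6351 in OEC Lp and 257 in OEC Ep, and Tfap2b had 196, 5473 and 231. On U34A, which the distance did not use, Itgb4 had 128 in TEG3, 1828 in OEC Lp and 288 in OEC Ep, and Akr1c14 had 1261 in OEC Lp and was at the floor of 128 in TEG3 and OEC Ep. For Hspb1, over 6 arrays and 3131 genes, they were Cadm1, a cell adhesion gene (0.884), Qpct, an enzyme that modifies peptide ends (1.08), Lcn2, the secreted lipocalin 2 (1.38), and Gnai1, a G protein subunit (1.53). Cadm1 had 820 in TEG3, 154 in OEC Lp and 246 in OEC Ep on U34A and 3555, 175 and 1765 on RAE2.0. On RAE2.0 the others also had TEG3 highest and OEC Lp lowest, but on U34A the likeness was weaker. Gnai1 had 162 in TEG3, 128 in OEC Lp and 207 in OEC Ep there, so TEG3 did not lead. Qpct and Lcn2 had 272 and 696 in TEG3 on U34A and were at the floor of 128 in OEC Ep. These distances describe 3 values per gene for Hspb8 and 6 for Hspb1.

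The rest of the chaperone system was described with 8 lists of 126 genes, of which 49 were on both array types and 120 on RAE2.0. In TEG3 against OEC Ep 1 of 49 rose, against 0.639% of all genes, and 0 fell, against 3.7%. At an unadjusted p under 0.05 in limma, 8 were higher and 3 lower in TEG3, against 21.7% of all genes in either direction. The median log2 fold was 0.25, against 0.04 for all genes. The gene that rose was Fkbp4, which codes for FKBP52, an HSP90 cochaperone of steroid receptors. Fkbp4 had signals averaged over its probe sets of 2680 in TEG3, 1370 in OEC Lp and 517 in OEC Ep on U34A. The RAE2.0 signals were 4132, 2491 and 1378, so both types gave the same order. The difference was 3.94-fold (log2 fold 1.98 ± 0.34, adjusted p = 0.0401). It passed in 3 of 14 alternatives (limma adjusted p from 0.0257 to 0.878). With no replicate block and with only the 4 arrays compared, 0 of all 3131 genes passed in this comparison. Fits without 1 array leave 1 array in a population, so only the log2 fold of Fkbp4 is read from them, 1.64 to 2.32.

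Cochaperones of HSP70 and HSP90 other than J-domain proteins had the highest median of the lists with at least 3 genes in that comparison, 0.73 over 8 genes, 1 of which passed. Stip1, which links HSP70 to HSP90, had 2398 in TEG3, 1061 in OEC Lp and 536 in OEC Ep on U34A and 12221, 6882 and 6326 on RAE2.0 (TEG3 against OEC Ep, log2 fold 1.56 ± 0.39, adjusted p = 0.0988). Hsf1, the factor that induces heat shock genes, had 1758, 1286 and 945 on U34A and 1013, 831 and 491 on RAE2.0 in the same order (0.97 ± 0.30, adjusted p = 0.142). The cytosolic chaperonin and prefoldin list had 0 of 3 genes passing and a median of 0.54. Mitochondrial chaperones and proteases had 0 of 5 and a median of 0.50, with Hspa9, the mitochondrial HSP70, at 1.03 ± 0.38 (adjusted p = 0.206) and Trap1, the mitochondrial HSP90, at 0.94 ± 0.31 (adjusted p = 0.163). The cytosolic HSP70, HSP90 and HSP110 list had 0 of 5 and a median of 0.24. In it Hspa1a, the heat-inducible HSP70, had -1.06 ± 0.42 (adjusted p = 0.226), a value that is uncertain because Hspa1b is a near-identical copy. The J-domain list had 0 of 6 and a median of -0.02, and the other small heat shock proteins 0 of 3 and 0.28. The list of the endoplasmic reticulum had 0 of 18 and a median of 0.13, close to that of all genes.

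In OEC Lp against OEC Ep 0 of 49 rose and 1 fell, against 2.11% and 4.02% of all genes. At an unadjusted p under 0.05 in limma 1 was higher and 3 lower, against 19.5% of all genes in either direction. The median log2 fold was 0.29, against 0.11 for all genes. The gene that fell was Atf3, a stress-induced transcription factor that also responds to many other stimuli. Atf3 had 747 in TEG3, 753 in OEC Lp and 5271 in OEC Ep on U34A and 1797, 775 and 4692 on RAE2.0. It was 6.51-fold lower in OEC Lp (log2 fold -2.70 ± 0.44, limma adjusted p = 0.0265), and it passed in 3 of 14 alternatives (adjusted p from 0.0196 to 0.341). With no replicate block 0 of all 3131 genes passed in this comparison. Without 1 array the log2 fold of Atf3 ran from -3.11 to -2.29. In TEG3 against OEC Lp 0 of 49 passed by limma, against 1.21% of all genes. At an unadjusted p under 0.05 3 were higher and 0 lower, against 15.4% of all genes in either direction. The median was 0.14, against -0.01 for all genes. Ppid, a cyclophilin that acts as an HSP90 cochaperone, had 863 in TEG3 and 407 in OEC Lp on U34A and 8186 and 3697 on RAE2.0 (log2 fold 1.12 ± 0.30, adjusted p = 0.179).

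Genes on RAE2.0 only have 1 array per population and no test. Of the 120 chaperone genes on that type, 11 were at least 2-fold higher and 4 lower in TEG3 than in OEC Ep (9.17% and 3.33%, against 12% and 10.6% of all genes). In OEC Lp against OEC Ep 9 were higher and 5 lower (7.5% and 4.17%, against 10.4% in each direction). Of the genes on RAE2.0 alone, Dnajc12, a J-domain protein, had the largest ratio between populations, with signals of 1347 in TEG3, 279 in OEC Lp and 2002 in OEC Ep. Dnajb4, a relative of Dnajb1, had 2529 in TEG3, 3209 in OEC Lp and 13283 in OEC Ep, so these J-domain genes did not follow Dnajb1, which was lowest in OEC Ep on 3 of its 4 probe sets. Herpud1, which takes part in the degradation of proteins of the endoplasmic reticulum, had 8997, 6733 and 1827.

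**Figure D4:**
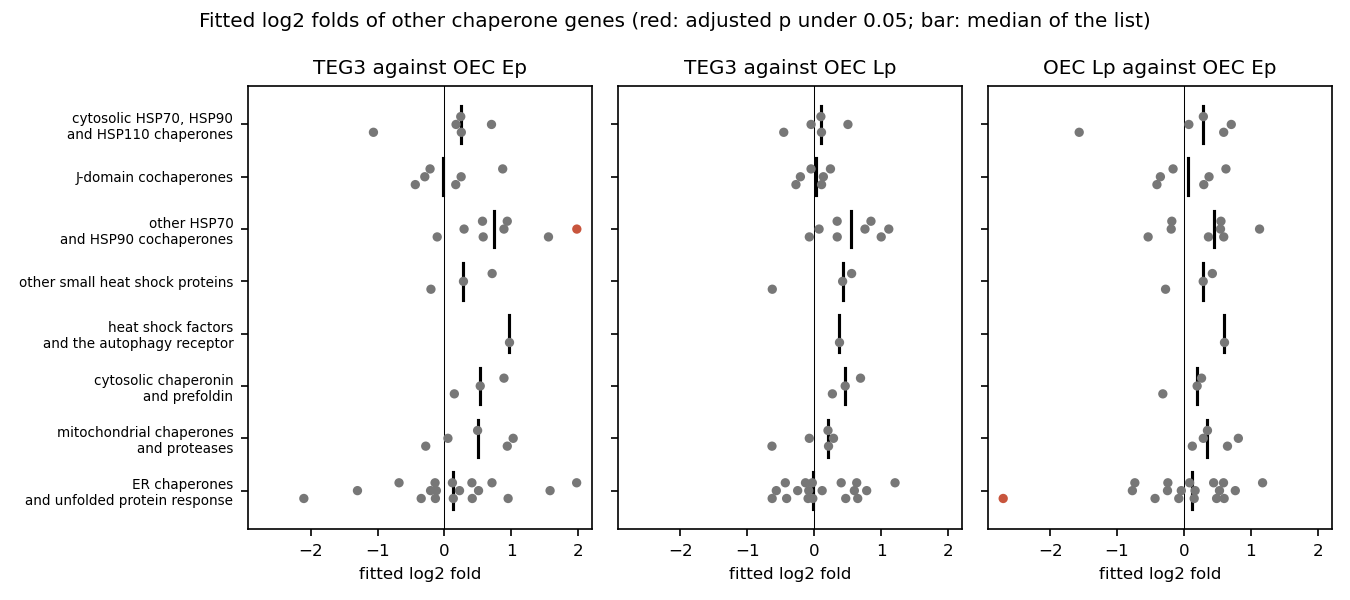
Fitted log2 folds (horizontal axis) of the 49 other chaperone genes on both array types by list (rows) for TEG3 against each of OEC Lp and OEC Ep and for OEC Lp against OEC Ep, with a point per gene, a bar at the median of the list and red for an adjusted p under 0.05. Only Fkbp4 at 1.98 and Atf3 at -2.70 are red.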

How the data were processed

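Both tables hold a linear signal intensity per probe set computed by the authors in MAS5 (per the submitters' processing notes); a further filter that the design text mentions has no stated setting. The deposited intensity values are whole numbers for 8799 (U34A) and 31099 (RAE2.0) probe sets, and no detection calls come with them. Within a type, arrays were brought to a common mean (2% trimmed), control probe sets were left out, signals were floored, and probe sets at the floor on all arrays of their type were dropped. The platform annotation named 1 symbol for 7006 and 20826 probe sets, which were used, and several for 308 and 436, which were not. Log2 signals of a gene's probe sets were averaged.

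The 3131 genes shared by the types entered a fit on all 6 arrays (limma 3.58.1, R 4.3.3) with terms for population and for array type, the replicate block, and the Benjamini-Hochberg adjustment. The block was used because the probes of the types differ; the replicate numbers follow the array types and do not pair RNA pools. The fit was tested on simulated data. The genes and lists were chosen with earlier results of these data known. The 7 genes with a probe set of their own were described on every array; of the other lists the text gives examples among the 3 genes of each list with the largest absolute fitted log2 fold over the comparisons, those called, and the 3 genes on RAE2.0 only with the largest ratios. Bag3, Sqstm1, Tnnt2, Foxc1, Twist1 and Prrx1 were named beside Hspb8 after their values were seen. RefSeq promoter windows matched 7 of the 10 genes by symbol.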

Additional observations from a re-analysis of the deposited data

How the results depend on the processing

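In the main setting 0 of the 6 genes were called in each comparison, and 14 alternatives were run. The count in TEG3 against OEC Ep became 1 with the brightest probe set of each gene (Hspa2), and it was 0 in the other settings. With no replicate block of array type and with only the 4 arrays compared, 0 of all 3131 genes passed in this comparison. With no filter on low values 1 of 4582 genes passed. A count of 0 in these settings therefore says nothing about single genes. For the other 2 comparisons the count was 0 as well, and with no replicate block 0 of all 3131 genes passed there too. Fits without 1 array leave 1 array in a population, and their counts are not read. The count of other chaperone genes, 1 in TEG3 against OEC Ep and 1 in OEC Lp against OEC Ep, became 0 in both with no floor, with a floor at the 20th percentile, with no filter on low values, with only the 4 arrays compared and with no replicate block, and ran from 0 to 0 without 1 array. It became 2 in TEG3 against OEC Ep for probe sets above the floor on all arrays, where Atf3 joined Fkbp4. With only the 4 arrays fewer arrays set the spread; for the other settings the cause was not tested.

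Of 246 values of single genes under the alternatives, 241 kept their side of the threshold and either kept their sign or turned it within 1 SE of the main value, and 1 newly passed the threshold (Hspa2, above). The values that reversed each left out 1 array, and their construction shows the cause, since the array left out held the opposite sign. Without the OEC Lp array of U34A, Hspa5 had a log2 fold of 0.29 in OEC Lp against OEC Ep (range without 1 array -0.79 to 0.29) and -0.44 in TEG3 against OEC Lp (-0.44 to 0.64), and Hspa2 had 0.31 in TEG3 against OEC Lp (-0.53 to 0.31). Without the TEG3 array of U34A, Hspd1 had -0.19 in TEG3 against OEC Lp (-0.19 to 1.13). Hspa5 in TEG3 against OEC Ep ran from -0.44 to 0.14. An array left alone in its population was assumed to vary like the others. Hspb1 and Hspa2 gave no value under the filter that asks for all arrays above the floor. Signals of Hspb8 in TEG3 and OEC Ep, of Hspa2 in TEG3 and OEC Lp and of Hspb1 in OEC Lp on RAE2.0 lie close to or under the floor, where levels cannot be ordered.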

Other observations

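Some of the 18 genes of the endoplasmic reticulum list on both array types had ratios that differed between the types, and those named here were chosen after their values were seen. Ddit3, which codes for the transcription factor CHOP, had signals of 8612 in TEG3, 4525 in OEC Lp and 1427 in OEC Ep on RAE2.0, but 265, 288 and 179 on U34A. Trib3, a pseudokinase gene induced by CHOP, had 4976 in TEG3, 2059 in OEC Lp and 331 in OEC Ep on RAE2.0, but 314, 142 and 305 on U34A. The U34A signals of both genes are close to the floor of 128.4, so their U34A ratios say little. The log2 ratios of TEG3 to OEC Ep were therefore 2.59 and 3.91 on RAE2.0 and 0.57 and 0.04 on U34A, and the fitted values did not pass (limma adjusted p = 0.164 for Ddit3 and 0.309 for Trib3). Asns, the asparagine synthetase gene on the same list, had log2 ratios of 1.99 on RAE2.0 and -0.08 on U34A. The types gave closer ratios for Pdia6 (RAE2.0 0.49, U34A 0.53) and Calr (RAE2.0 0.48, U34A 0.34), both protein-folding genes, so the difference does not hold for the list as a whole. Herpud1, on RAE2.0 only, had the same order of populations there, while Hspa5 did not follow on either type.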
